A study of Mus musculus with 12 samples.

Results

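The genes described here are 10 marker genes of dermal fibroblasts, Pdgfra, Dpp4, Dcn, Lum, Dpt, Pi16, Crabp1, Cd34, Ly6a and En1, found by gene name among the 55487 genes listed for each library. The list was given by name, and all 10 were found, each on 1 row. RNA came from full-thickness punch wounds on the backs of male C57BL/6JNarl mice, each with 2 wounds, excised with the skin around them at day 3 or day 6. Sham wounds received Pluronic F127 gel alone every day, and CAP-treated wounds received 10 µM capsaicin (CAP), the agonist of the sensory channel TRPV1, in the same gel. No gene was altered as far as the labels say. The gel, the injury and the dressing were shared by all groups, and unwounded skin was not analysed here. Each of the 4 groups, sham and CAP at day 3 and sham and CAP at day 6, holds 3 libraries. The sources do not say whether libraries share a mouse, so p values measure the spread between libraries, which may be partly technical. Values are TPM, a level per transcript length that sums to the same total in every library, and libraries are named by group and replicate number (sham library 1 is replicate 1).

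Dermal fibroblasts make and turn over the collagen matrix of the skin, and in a healing wound they migrate in from the surrounding dermis and from the fascia beneath it to build granulation tissue. They are not uniform: papillary, reticular and fascial cells carry different surface proteins, and cells around vessels and in the fascia are often told apart by Dpp4, Pi16, Cd34 and Ly6a. Pdgfra, a receptor tyrosine kinase for platelet-derived growth factors, is the marker most widely used for the whole population. Cd34 and Ly6a are also made by other cells, endothelial and blood-forming cells among them. In bulk tissue, fewer cells of a type and less RNA per cell cannot be told apart.

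The levels of all 10 genes were above the filter of 0.3 TPM in every library, and the 15 other fibroblast genes of a fixed list, collagens among them, summed to 12669 to 30180.1 TPM. The wounds also held much RNA of other cells. Keratinocyte genes, a list of 6, summed to 27379 to 44527 TPM in sham and 23053 to 43984 TPM in CAP-treated wounds at day 3, and to 24797 to 27837 and 42717 to 90154 TPM at day 6. Endothelial genes, a list of 7, summed to 106 to 142 and 92.0 to 161 TPM at day 3, and to 286 to 385 and 77.7 to 239.5 TPM at day 6. The 6 leukocyte genes summed to 3794 to 5458 and 4552 to 10091 TPM at day 3, and to 6797 to 9747 and 4011 to 9075 TPM at day 6. All genes of these 3 lists had a mean over 0.3 TPM in each group. The part of this makeup in the results below was not tested.

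CAP library 2 of day 6 stood apart. It had the highest keratinocyte sum and the lowest endothelial sum of the 12 libraries, with Krt10 at 40801 TPM, and the fewest genes at 0.3 TPM or more, 18533 where the other libraries had up to 19325. It also held the lowest value of Pdgfra, Crabp1 and En1 and the highest of Dpp4, Dpt and Pi16 among all libraries. CAP library 2 of day 3 held the lowest value of 6 of the 10 genes. Where a difference or ratio of the 10 genes with CAP at day 6 passed a threshold or did not overlap, and moved by over 1.5 times without the day 6 library, it is given both ways.

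Per transcript length, decorin was by far the most abundant of the 10. Over the 12 libraries Dcn averaged 1445 TPM, Ly6a 349, Dpt 313, Cd34 240.5, Pi16 229.9, Lum 135, Pdgfra 65.1, Dpp4 35.3, Crabp1 23.1 and En1 9.08 TPM. Dcn lay above Ly6a, Pi16 above Lum, and Lum above Pdgfra in 12 of 12 libraries. Other neighbours in this order were not separated by library: Ly6a lay above Dpt in 7 of 12 and Cd34 above Pi16 in 6 of 12. Crabp1 varied most, with its highest value 14.2 times its lowest, followed by Pi16 at 3.67 times. The highest value of each of the other 8 genes was at most 2.98 times its lowest.

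**Figure D1:**
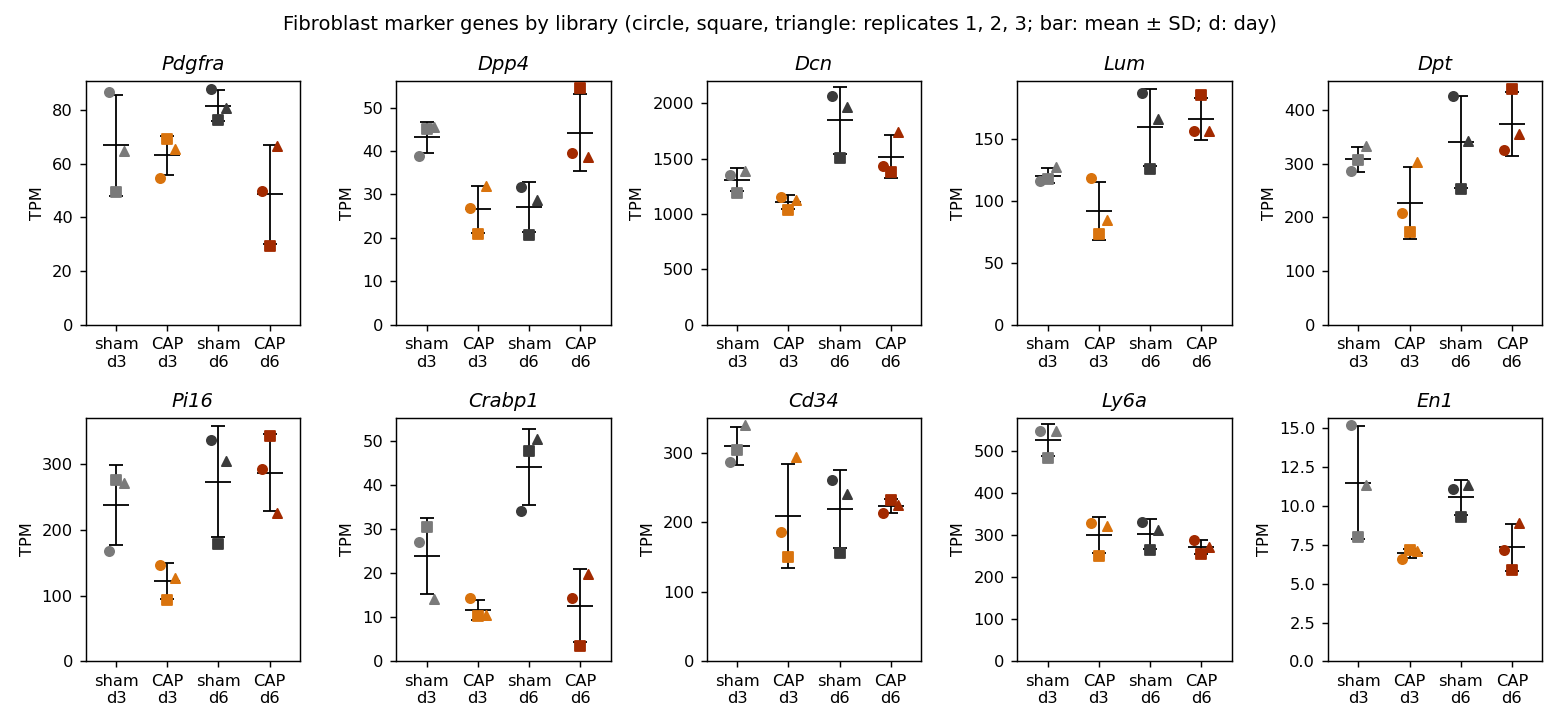
TPM of each of the 10 fibroblast marker genes in each library, by treatment (sham, CAP) and day (d3, d6). Circles, squares and triangles are replicates 1, 2 and 3, and bars are the mean ± SD of 3 libraries. Dpp4 is lower in CAP than in sham wounds at day 3 and higher at day 6, with no overlap on either day, while Crabp1 is highest in the sham wounds of day 6, at 34.2, 47.6 and 50.5 TPM.

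The upstream windows of Dpp4 and Crabp1 are shown because Dpp4 did not overlap between the treatments on either day, lower with CAP at day 3 and higher at day 6, and Crabp1 had the largest difference of the 10 between the treatments. Each is the 250 bases before the annotated start, from RefSeq on GRCm38.p6, in the direction of the gene. Of the 10 genes, 7 were matched in that table, with 1 start each. Capitals mark matches to motifs searched on both strands: the TATA box written TATAAA, the CAAT box written CCAAT, the GC box written GGGCGG, the AP-1 element written TGANTCA, the STAT element written TTCNNNGAA, the homeodomain core written TAATTA, and the interferon-stimulated response element, taken as GAAA, any 2 bases and GAAA again. No 2 matches overlap in these windows.
Dpp4, chr2:62412232-62412481, minus strand: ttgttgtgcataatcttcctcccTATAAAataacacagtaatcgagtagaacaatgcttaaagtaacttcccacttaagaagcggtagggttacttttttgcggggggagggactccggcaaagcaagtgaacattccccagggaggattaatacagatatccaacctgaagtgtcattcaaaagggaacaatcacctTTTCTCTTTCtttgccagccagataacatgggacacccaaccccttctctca
Crabp1, chr9:54764498-54764747, plus strand: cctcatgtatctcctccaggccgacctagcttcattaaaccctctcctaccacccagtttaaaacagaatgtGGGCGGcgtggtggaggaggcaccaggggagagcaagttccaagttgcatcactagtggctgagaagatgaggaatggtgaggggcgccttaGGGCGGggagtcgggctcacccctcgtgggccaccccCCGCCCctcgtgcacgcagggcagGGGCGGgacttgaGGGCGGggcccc
In the Dpp4 window the capitals are TATAAA, from 227 to 222 bases before the start, and a match to the interferon-stimulated response element. The second lies on the other strand, from 52 to 43 bases before the start. Of 32851 promoter windows of this length, 2.98% held that element and 12.4% the TATA box. The Crabp1 window is rich in G and C, at 63.6% where the median of all windows was 52.4%, and it holds 12 CG pairs where the median was 6. Its capitals are 5 matches to the GC box, 4 as written and 1 on the other strand, a motif found in 32.7% of windows. In the windows of the other 5 matched genes, Dpt held 1 STAT element (in 7.02% of all windows), Pi16 held 1 CAAT box (33.9%), En1 held 2 CAAT boxes on the other strand and 1 AP-1 element (6.75%), and Pdgfra and Cd34 held no match. The homeodomain core, in 4.84% of all windows, was in none of the 7. These are letters in a window, and whether a factor binds there was not measured.

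At day 3, Dpp4, Pi16, Ly6a, En1 and Dcn each stood lower in every CAP library than in every sham library, while Cd34, Lum, Dpt, Crabp1 and Pdgfra overlapped between the groups. Of the 10 genes, 0 passed the study's threshold, an unadjusted p under 0.05 with a difference of at least 2-fold, here with the p of limma where the study used another test, a threshold that 1.16% of all genes passed in the lower and 0.426% in the higher direction. At an unadjusted p under 0.05 alone, 7 of the 10 were lower and 0 higher, where 5.14% of 18330 genes were lower and 1.46% higher. In 5 of the 10 the groups did not overlap with CAP lower, as in 8.75% of all genes. Leaving out 1 library gave 3 lower genes without sham library 1, 4 without sham library 2, sham library 3 or CAP library 2, 5 without CAP library 1 and 7 without CAP library 3. After adjustment over all genes 0 of the 10 had a p under 0.05, as did 0.0164% of all genes in the higher and 0% in the lower direction. All 10 differences lay below 0 on the deposited scale, as did 62.2% of all genes, with Pdgfra turning to 0.01 under median-ratio scaling.

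Dpp4 (ENSMUSG00000035000, chr2:62330073-62412231, minus strand) encodes CD26, a membrane peptidase that cuts dipeptides from the ends of chemokines and incretins. Gene positions here and below are on GRCm38 and span the whole gene, and all 10 genes are annotated as protein coding. Dpp4 stood at 38.9, 45.1 and 45.4 TPM in sham and at 26.8, 21.0 and 31.9 TPM in CAP-treated wounds (replicates 1, 2 and 3). Every CAP library lay below every sham library. On the log2 scale the groups differed by −0.71 (limma, SE 0.16, adjusted p = 0.500).

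Pi16 (ENSMUSG00000024011, chr17:29317680-29330593, plus strand) encodes a secreted peptidase inhibitor found in fibroblasts around vessels and in fascia. It stood at 168, 275 and 271 TPM in sham and at 146, 93.3 and 126.8 TPM in CAP-treated wounds. The groups did not overlap, though the lowest sham value was near the highest CAP value. The log2 difference was −0.95 (limma, SE 0.24, adjusted p = 0.539), just short of 2-fold. Without sham library 1 it was −1.18 and without CAP library 1 −1.09, both past the threshold.

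Ly6a (ENSMUSG00000075602, chr15:74994877-74998031, minus strand), which encodes the GPI-anchored protein Sca-1, had the smallest p of the 10, ranking 16th of all 18330 genes. It stood at 545, 482 and 547 TPM in sham and at 327, 249.7 and 321 TPM in CAP-treated wounds. The sham libraries all lay above the CAP libraries, with means of 525 ± 37.4 and 299 ± 43.0 TPM (SD, 3 libraries each). By limma the log2 difference was −0.82 (SE 0.13, adjusted p = 0.500). Ly6a shares 31.9% of its 31-base stretches with other genes, most of them with Ly6c1, so reads may be divided between them. The sum of Ly6a and Ly6c1 was 936 ± 66.0 TPM in sham and 561 ± 96.9 TPM in CAP-treated wounds.

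Cd34 (ENSMUSG00000016494, chr1:194938819-194961279, plus strand), a sialomucin of fibroblasts, vessels and blood progenitors, had a wider spread in the CAP group. It stood at 287, 303 and 339.9 TPM in sham and at 185, 149 and 293 TPM in CAP-treated wounds. CAP library 3 lay within the sham range. On the log2 scale the groups differed by −0.62 (limma, SE 0.24, adjusted p = 0.732).

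The matrix genes differed less. Dcn (ENSMUSG00000019929, chr10:97479609-97518143, plus strand) and Lum (ENSMUSG00000036446, chr10:97565128-97572703, plus strand) encode decorin and lumican, small leucine-rich proteoglycans that bind collagen fibrils and set their thickness, and Dpt (ENSMUSG00000026574, chr1:164796644-164824266, plus strand) encodes dermatopontin, a matrix protein that binds decorin. Dcn was 1310.2 ± 106 TPM in sham and 1107 ± 64.8 TPM in CAP-treated wounds, without overlap, at a log2 difference of −0.24 (SE 0.12, adjusted p = 0.799). Lum differed by −0.42 (adjusted p = 0.755) and Dpt by −0.48 (adjusted p = 0.760), both with overlapping groups.

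Pdgfra (ENSMUSG00000029231, chr5:75152292-75198215, plus strand) did not stand with the others. It was at 86.7, 49.3 and 64.8 TPM in sham and at 54.8, 69.1 and 65.4 TPM in CAP-treated wounds, and the CAP values lay inside the sham range. The log2 difference was −0.05, with a 95% interval of −0.55 to 0.44. It turned to 0.15 without sham library 1. The interval also holds the differences of Dcn, Lum and Dpt, so it does not set Pdgfra apart from them.

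Crabp1 (ENSMUSG00000032291, chr9:54764748-54773110, plus strand) encodes a cytosolic binding protein for retinoic acid that marks papillary and dermal papilla fibroblasts, and En1 (ENSMUSG00000058665, chr1:120602418-120607992, plus strand) a homeobox factor of the back-skin fibroblast lineage. Crabp1 stood at 27.0, 30.5 and 14.1 TPM in sham and at 14.4, 10.3 and 10.5 TPM in CAP-treated wounds, where sham library 3 fell within the CAP range. Its log2 difference was −0.96 (limma, SE 0.30, adjusted p = 0.659), and it passed the threshold without sham library 3, at −1.30, or without CAP library 1, at −1.12. En1 stood at 15.2, 7.97 and 11.3 TPM in sham and at 6.60, 7.14 and 7.06 TPM in CAP-treated wounds, a narrow CAP group below a wide sham group. Its log2 difference was −0.67 (limma, SE 0.23, adjusted p = 0.692).

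**Figure D2:**
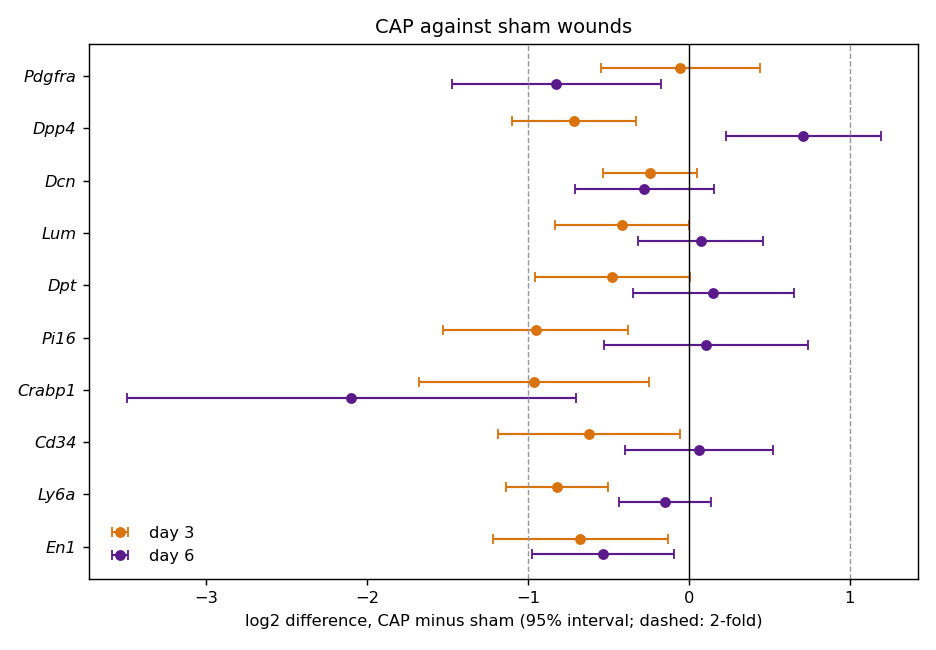
Log2 difference between CAP-treated and sham wounds at day 3 (orange) and day 6 (purple) for each marker gene, with 95% intervals from limma on 3 against 3 libraries. Dashed lines mark 2-fold. The day 3 points all lie below 0, from −0.96 for Crabp1 to −0.05 for Pdgfra (which turns to 0.01 under median-ratio scaling), and at day 6 Dpp4 lies above 0 at 0.71 and Crabp1 far below it at −2.10.

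At day 6 the 10 genes no longer pointed one way. Crabp1 fell past the study's threshold in the CAP-treated wounds, the 1 gene of the 10 that did, where 2.34% of all genes passed it in this direction and 1.46% in the other. Pdgfra and En1 were lower in all CAP libraries than in all sham libraries, and Dpp4 was higher in all of them. At an unadjusted p under 0.05, 3 of the 10 were lower, where 12.5% of 18323 genes were, and 1 was higher, where 6.67% were. The groups did not overlap for the same 3 with CAP lower, as for 18% of all genes, and for Dpp4 with CAP higher, as for 8.01%. The 3 lower genes became 1 without sham library 1, and 2 without sham library 3, CAP library 1 or CAP library 2. With limma, 0 of the 18323 genes had an adjusted p under 0.05, and 3517 had an unadjusted p under 0.05.

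The scale matters at this day. The median log2 difference of all genes was −0.12 on the deposited scale and −0.01 after median-ratio scaling, and genes called higher and lower numbered 268 and 429 on the first, 389 and 300 on the second and 406 and 244 after quantile normalization. At day 3 the numbers were 78 and 212 as deposited, 89 and 178 after median-ratio scaling and 101 and 160 after quantile normalization. All 10 genes kept their direction at day 6 under both scalings, and Crabp1 its call.

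Crabp1 stood at 34.2, 47.6 and 50.5 TPM in sham and at 14.5, 3.56 and 19.8 TPM in CAP-treated wounds at day 6. The lowest sham library lay well above the highest CAP library. By limma the log2 difference was −2.10 (SE 0.59, adjusted p = 0.209), and −1.99 after median-ratio scaling. Without CAP library 2 it was −1.36, smaller but still past the threshold.

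Dpp4 stood at 31.8, 20.7 and 28.8 TPM in sham and at 39.6, 54.4 and 38.7 TPM in CAP-treated wounds. Every CAP library lay above every sham library, the reverse of day 3. On the log2 scale the groups differed by 0.71 (limma, SE 0.20, adjusted p = 0.210), under 2-fold, and 0.55 without CAP library 2, the library with the highest value, with an unadjusted p under 0.05 both ways. After median-ratio scaling it was 0.82.

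Pdgfra stood at 87.9, 76.4 and 80.7 TPM in sham and at 49.7, 29.5 and 66.5 TPM in CAP-treated wounds. The sham libraries were close together and all above the CAP libraries. The log2 difference was −0.82 (limma, SE 0.28, adjusted p = 0.224), −0.50 without CAP library 2 (unadjusted p still under 0.05) and −1.09 without CAP library 3, which puts it past the threshold.

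En1 stood at 11.0, 9.26 and 11.3 TPM in sham and at 7.18, 5.89 and 8.89 TPM in CAP-treated wounds. The groups were separate, with sham library 2 just above CAP library 3. By limma the log2 difference was −0.54 (SE 0.19, adjusted p = 0.228), and −0.39 without CAP library 2, with an unadjusted p over 0.05.

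The remaining 6 genes overlapped between the groups at day 6. Ly6a, at 302 ± 34.7 TPM in sham and 272 ± 16.9 TPM in CAP-treated wounds (SD, 3 libraries each), differed by −0.15, with a 95% interval of −0.44 to 0.14. Pi16, at 273 ± 84.0 and 287 ± 58.6 TPM, differed by 0.10 (−0.53 to 0.74). Dcn differed by −0.28 (−0.71 to 0.16). Lum, Dpt and Cd34 differed by 0.07, 0.15 and 0.06, with intervals that reach from −0.40 in Cd34 to 0.65 in Dpt.

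The difference between the 2 days was tested over all 12 libraries as the CAP effect at day 6 minus that at day 3. Dpp4 and Pi16 changed by this test, past the study's threshold in the higher direction, 2 of the 10 genes where 2.18% of 20267 genes passed it, and 0 passed in the lower direction, where 2.73% did. With limma, 0 of the 20267 genes had an adjusted p under 0.05, and 2292, or 11.3%, had an unadjusted p under 0.05. The comparison shares its libraries with those above, so it adds no new samples.

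For Dpp4 the change was 1.42 (limma, SE 0.28, adjusted p = 0.428), a rank of 11 by p among 20267 genes. It is made of a difference of −0.71 at day 3 and 0.71 at day 6, and of means of 43.1 ± 3.66 and 26.6 ± 5.44 TPM at day 3 against 27.1 ± 5.72 and 44.2 ± 8.85 TPM at day 6. Leaving out any 1 library kept it between 1.24 and 1.57, past the threshold each time, and without CAP library 2 of day 6 it was 1.27. Averaged over both days the log2 difference of Dpp4 was −0.0018, which turned to 0.08 under median-ratio scaling and 0.07 after quantile normalization.

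For Pi16 the change was 1.05 (limma, SE 0.40, adjusted p = 0.428). It did not hold without each library: leaving out sham library 2 or 3 or CAP library 2 of day 3, or sham library 2 or CAP library 2 of day 6, gave 0.93, 0.94, 0.87, 0.77 and 0.91, each under 2-fold. Ly6a differed by 0.67 (limma, SE 0.18, unadjusted p = 0.0033, adjusted p = 0.428), under 2-fold. Cd34 at 0.68, Dpt at 0.63 and Lum at 0.49 were higher and Pdgfra, at −0.77, was lower at day 6 than at day 3, none with a p under 0.05. Without CAP library 3 of day 6, Pdgfra, at −1.03, and Crabp1, at −1.62 where all libraries gave −1.13, passed the threshold, and without CAP library 2 of day 6 Crabp1 was at −0.40. En1, at 0.14, and Dcn, at −0.03 (0.02 under median-ratio scaling), were near 0.

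**Figure D3:**
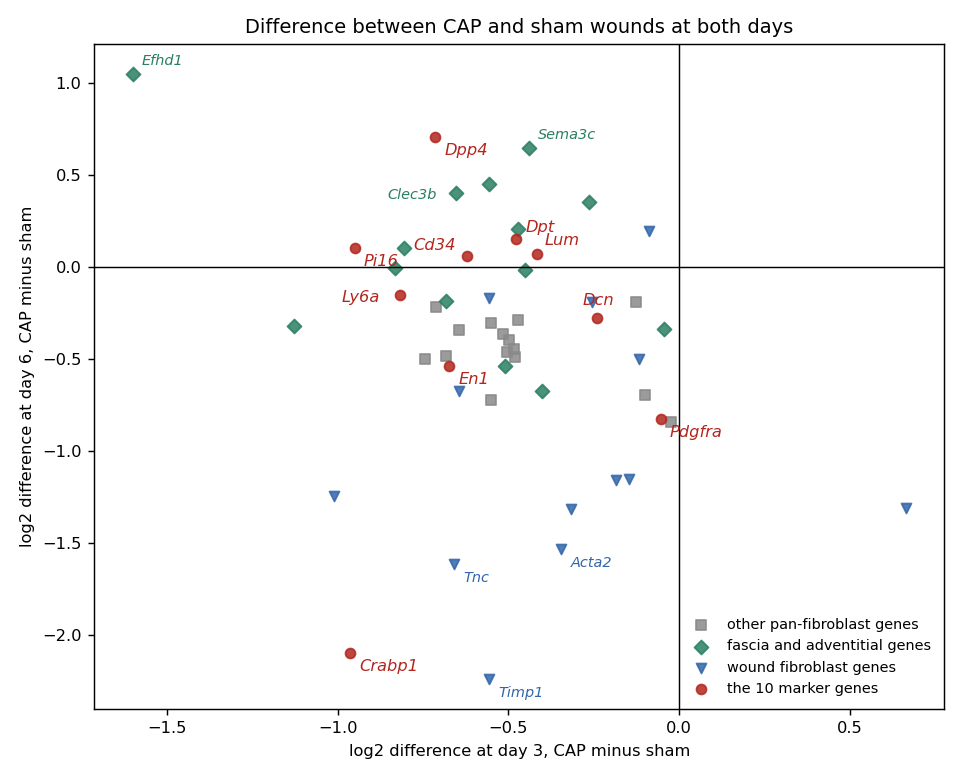
Log2 difference between CAP-treated and sham wounds at day 3 (horizontal axis) and at day 6 (vertical axis) for the 10 marker genes (red circles), 15 other fibroblast genes (grey squares), 14 fascia and adventitial genes (green diamonds) and 13 wound fibroblast genes (blue triangles). The other fibroblast genes lie in the lower left, and Dpp4, Efhd1 and Sema3c in the upper left. Pi16, Dpt, Lum and Cd34 also lie in the upper left, at day 6 differences of 0.06 to 0.15. Crabp1 lies near the bottom, at a day 6 difference of −2.10.

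Averaged over both days, Crabp1 fell with CAP past the study's threshold, 1 of the 10 genes where 1.4% of 20267 did and 0.474% rose, with a log2 difference of −1.53 (limma, SE 0.37, adjusted p = 0.145). An exact permutation test within each day, 2-sided, gave p = 0.01, where 0.005 is the smallest it can give. Ly6a, at −0.48 (SE 0.09, adjusted p = 0.128), and En1, at −0.60 (SE 0.15, adjusted p = 0.149), were lower on both days by less than 2-fold, with permutation p values of 0.015 and 0.005. Dcn, at −0.26 (adjusted p = 0.243), and Pdgfra, at −0.44 (adjusted p = 0.263), were the other members under an unadjusted limma p of 0.05. Without CAP library 2 of day 6 Pdgfra was at −0.28. With all libraries 5 of 10 were lower at that p, where 13.5% of all genes were. That count became 3 after median-ratio scaling, and 3 without sham library 3 of day 3 or without sham library 1 or 3 of day 6. Each 3 against 3 comparison cannot reach an exact permutation p under 0.1, and that value was reached wherever the groups did not overlap.

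Between day 3 and day 6 Dcn was higher in both treatments without overlap, while Ly6a fell in sham wounds. In sham wounds, 0 of the 10 passed the study's threshold, where 2.13% of 18368 genes passed it as higher and 1.61% as lower. At an unadjusted p under 0.05, 3 of the 10 were higher (Dcn, Lum and Crabp1), where 8.05% of genes were, and 3 lower (Dpp4, Cd34 and Ly6a), where 7.91% were. The 3 higher genes became 0 without sham library 3 of day 6, 1 without sham library 1 of day 6 and 2 without sham library 2 of day 3, and the 3 lower genes became 2 without sham library 2 or 3 of day 3. After adjustment 1 was lower, where 1.14% of genes were. In CAP-treated wounds, 1 of the 10 rose past the threshold, where 1.27% of 18202 genes did, and 0 fell past it, where 1.52% did, and 5 were higher at an unadjusted p under 0.05, where 5.66% were. The CAP and sham wounds of a day enter these comparisons again, so they are not independent of those above.

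Ly6a fell in sham wounds from 525 ± 37.4 to 302 ± 34.7 TPM, a log2 difference of −0.80 (limma, SE 0.11, adjusted p = 0.0227), without overlap. The adjusted p rose to 0.0645 with no filter on low values, 0.0818 in a joint fit of 12 libraries, and 0.0517, 0.107 and 0.0796 without sham library 2 or 3 of day 3 or sham library 3 of day 6, so the call after adjustment is lost there. In CAP-treated wounds it was 299 ± 43.0 TPM at day 3 and 272 ± 16.9 TPM at day 6, a difference of −0.13 with a 95% interval of −0.46 to 0.20. The CAP-treated wounds of day 3 thus held about the level that sham wounds had at day 6. Over both treatments the difference was −0.47 (SE 0.09, adjusted p = 0.0373), with an exact permutation p of 0.02. That adjusted p was under 0.05 only without CAP library 2 or 3 of day 3 or CAP library 2 of day 6 among the 12 fits that leave out a library, with values up to 0.0962, and it was 0.0688 with no filter.

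Dpp4 differed in opposite directions: by −0.69 (SE 0.17, adjusted p = 0.0879) in sham wounds and by 0.74 (SE 0.20, adjusted p = 0.316) in CAP-treated wounds, each without overlap between the days. Pi16 rose in CAP-treated wounds from 122 ± 26.7 to 287 ± 58.6 TPM, a log2 difference of 1.24 (limma, SE 0.22, adjusted p = 0.270), and 1.10, still past the threshold, without CAP library 2 of day 6. In sham wounds it differed by 0.18, with an interval of −0.49 to 0.85. Cd34 differed by −0.53 (adjusted p = 0.233) in sham and by 0.15 (adjusted p = 0.824) in CAP-treated wounds.

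Dcn was higher at day 6 by 0.48 (adjusted p = 0.182) in sham and by 0.45 (adjusted p = 0.357) in CAP-treated wounds, without overlap in either. Over both treatments the difference was 0.47 (SE 0.11, adjusted p = 0.0587), and the exact permutation p, 2-sided within treatments, was 0.005, the smallest it can give. Lum rose over both treatments by 0.63 (SE 0.13, adjusted p = 0.0444), made of 0.39 in sham and 0.88 in CAP-treated wounds, with a permutation p of 0.01. The adjusted p was under 0.05 only without CAP library 1 of day 3 or sham library 2 of day 6 among those 12 fits, with values up to 0.103, and it was 0.0829 with no filter. The difference in CAP-treated wounds passed the 2-fold threshold without CAP library 1 of day 3, at 1.07. Of the 10 genes, 1 had an adjusted p under 0.05 as higher over both treatments, where 0.543% of genes did, and 1 as lower, Ly6a, where 0.755% did. Dpt was higher by 0.74 (adjusted p = 0.346) in CAP-treated wounds and by 0.11 (adjusted p = 0.835) in sham wounds.

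Crabp1 was higher at day 6 in sham wounds by 0.94 (SE 0.30, adjusted p = 0.180), without overlap and close to 2-fold. It passed the threshold without sham library 1 of day 3 (1.06), sham library 2 of day 3 (1.15) or sham library 1 of day 6 (1.11). In CAP-treated wounds it differed by −0.20, with an interval of −1.63 to 1.24, and by 0.54 without CAP library 2 of day 6, so the direction there rests on 1 library. Pdgfra differed by 0.32 in sham and −0.45 in CAP-treated wounds, and En1 by −0.08 and 0.06, all with a p over 0.05.

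**Figure D4:**
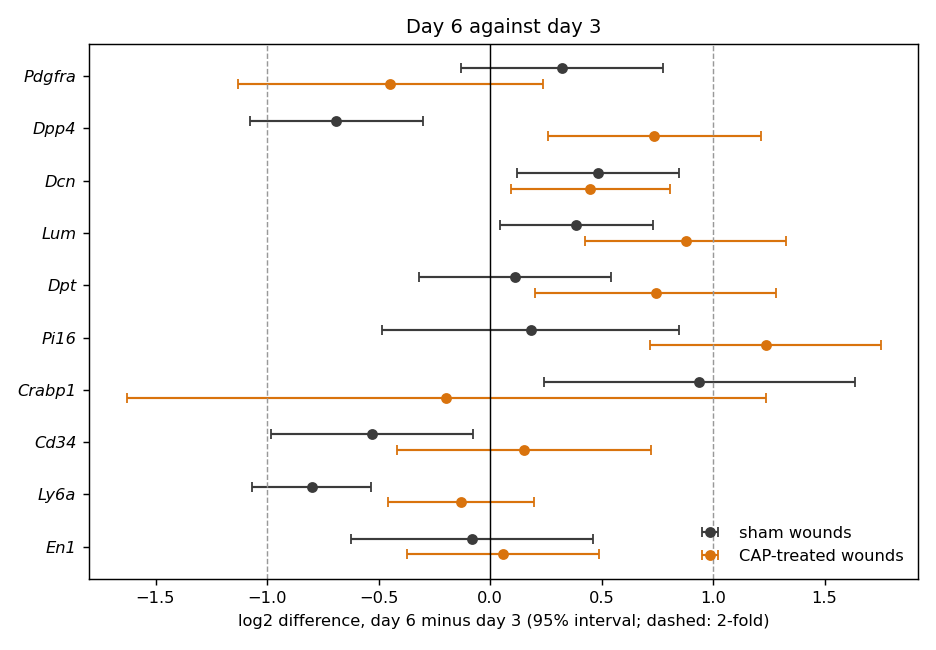
Log2 difference between day 6 and day 3 in sham wounds (dark) and in CAP-treated wounds (orange) for each marker gene, with 95% intervals from limma on 3 against 3 libraries. Dashed lines mark 2-fold. Dpp4 lies at −0.69 in sham and 0.74 in CAP-treated wounds, and Dcn above 0 in both, at 0.48 and 0.45.

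The genes were also set against other fibroblast RNA of the same library, as log2 ratios described without a test. Relative to Pdgfra, the 9 other genes were all lower on average in CAP-treated wounds at day 3, and Ly6a and En1 did so without overlap between the groups. At day 6, 1 of the 9 was lower, Crabp1, without overlap. The directions of these averages follow from the differences given above and add nothing to them. At day 3 all differences lay below 0 and that of Pdgfra was nearest 0, and at day 6 only Crabp1 differed by a lower value than Pdgfra. Without overlap, 6 were higher at day 6, Dpp4 by 1.53, Dpt by 0.98, Lum by 0.90, Cd34 by 0.89, Ly6a by 0.67 and Dcn by 0.55. Without CAP library 2 of day 6 these 6 still did not overlap, at 1.06, 0.53, 0.49, 0.54, 0.40 and 0.29 in the same order. Pdgfra itself differed between the groups at day 6, by −0.82, and enters every one of these ratios. The median difference of all genes was −0.12, so a gene at that median would also lie higher relative to Pdgfra. Without a denominator, Dpt, Lum, Cd34, Ly6a and Dcn overlapped between the groups at day 6. The count without overlap is thus not read as a result about these genes. The share of all genes that did not overlap on this ratio was not computed.

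Relative to the mean of 15 other fibroblast genes, a denominator added after seeing the data, all 10 genes overlapped between the groups at day 3. At that day Dpp4 differed by −0.24, Pi16 by −0.48 and Ly6a by −0.35. At day 6, 4 genes were higher in CAP-treated wounds without overlap, Dpp4 by 1.16, Dpt by 0.60, Lum by 0.52 and Cd34 by 0.51. Crabp1, at −1.65, and Pdgfra, at −0.37, were lower without overlap, and the other 4 overlapped. Without CAP library 2 of day 6 the same 6 genes did not overlap, with Dpp4 at 0.89, Dpt at 0.36, Lum at 0.33, Cd34 at 0.37, Crabp1 at −1.02 and Pdgfra at −0.17. The 15 genes of the denominator had a median log2 difference of −0.50 at day 3 and −0.45 at day 6, where that of all genes was −0.05 and −0.12. A gene at the median of all genes would thus also lie higher relative to them. Without a denominator, Dpt, Lum and Cd34 differed by 0.15, 0.07 and 0.06 at day 6, with overlapping groups. Their lack of overlap on the ratio is thus not read as a result about them. The share of all genes that did not overlap on this ratio was not computed.

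**Figure D5:**
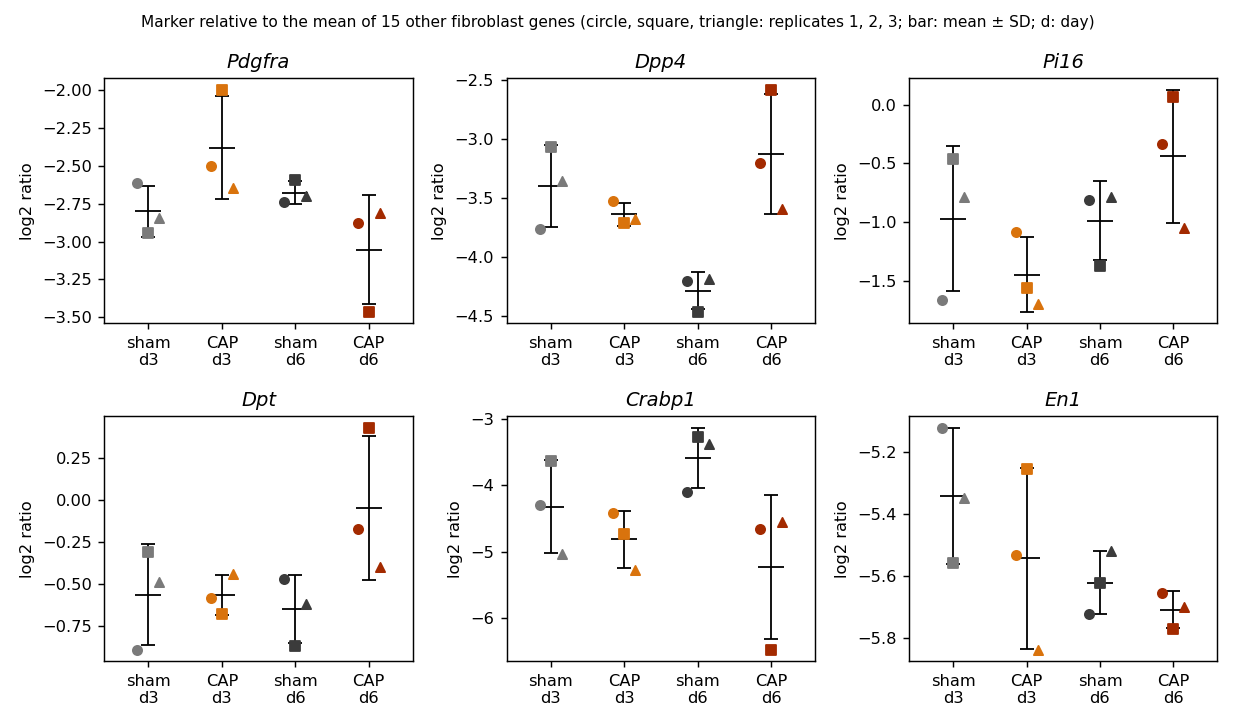
Log2 ratio of 6 marker genes to the mean of 15 other fibroblast genes in each library, by treatment and day (d3, d6). Circles, squares and triangles are replicates 1, 2 and 3, and bars are the mean ± SD of 3 libraries. At day 6 the CAP libraries lie above the sham libraries for Dpp4, by 1.16 on average, and below them for Crabp1, by −1.65.

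The genes whose profile over the 12 libraries was most like that of Pdgfra were, among 16159 genes that are no members and have a mean of at least 1 TPM, Azin2, Plscr1, Lcp2, Fndc3b and Tnfrsf23. Their centred log2 values differed from those of Pdgfra by a root mean square of 0.0906, 0.0980, 0.104, 0.124 and 0.125. Among the other markers En1 was nearest, at 0.283, then Dcn, at 0.422, and Pi16 was farthest, at 0.812. This is a description over 12 libraries of 4 groups.

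Of 15 other fibroblast genes, 0 passed the study's threshold at day 3 or at day 6. The median log2 difference of the list was −0.50 at day 3, where that of all genes was −0.05, and −0.45 at day 6, where that of all genes was −0.12. At an unadjusted p under 0.05, 9 of them were lower in CAP-treated wounds at day 3, where 5.14% of all genes were. That count ran from 2 without sham library 1 to 13 without CAP library 3. At day 6, 7 were lower at that p, where 12.5% of all genes were. This count ran from 2 without sham library 1 or 3 or CAP library 1 or 2 to 11 without CAP library 3. Twist2, a mesenchymal transcription factor, had the smallest p of the list on both days, at −0.55 (adjusted p = 0.500) and −0.72 (adjusted p = 0.205). Pdgfrb, the receptor related to Pdgfra, differed by −0.84 (adjusted p = 0.209) at day 6, and by −1.05 without CAP library 3, which passes the threshold. At day 3 it differed by −0.03, turning to 0.04 under median-ratio scaling. In sham wounds Pdgfrb was at 28.4 ± 6.17 TPM at day 3 and rose to 59.2 ± 6.25 TPM at day 6, by 1.07 (SE 0.16, adjusted p = 0.0260), a 2-fold difference lost without sham library 2 of day 3 (0.95) or sham library 3 of day 6 (0.999). The ligand genes Pdgfa, Pdgfb, Pdgfc and Pdgfd passed no threshold between the treatments on either day, the lowest p being that of Pdgfc at day 6, at −0.47 (adjusted p = 0.266).

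Among 14 genes of fascial and adventitial fibroblasts, with which Dpp4 and Pi16 are usually grouped, the median was −0.53 at day 3. Of them, 2 passed the threshold as lower, where 1.16% of all genes did. Plac8 fell by 1.13 on the log2 scale (limma, adjusted p = 0.500), a call lost without CAP library 2 (at −0.99). Efhd1, named after its values were seen, differed by −1.60 (adjusted p = 0.744), lost under both scalings and without sham library 2 (at −1.45), sham library 3 (at −1.40), CAP library 1 (at −1.64) or CAP library 2 (at −0.92). Without CAP library 3, 4 of the list passed. At day 6 Efhd1 was the 1 gene of the list past the threshold, as higher, where 1.46% of all genes were. It stood at 1.05 (adjusted p = 0.227), a call lost without sham library 2 (at 0.93) or CAP library 2 (at 0.62). The change in the CAP effect between the days passed the threshold in the higher direction for 4 of the 14, where 2.18% of all genes did. The list median was 0.75, where that of all genes was −0.06. The 4 were Sema3c at 1.09 (adjusted p = 0.428), Cd55 at 1.01 (adjusted p = 0.428) and, named after their values were seen, Efhd1 at 2.65 (adjusted p = 0.428) and Clec3b at 1.06 (adjusted p = 0.439). Cd55 lost the call at a pseudocount of 1 TPM, and Clec3b with no filter on low values or with the replicate number as a block. The count of 4 became 1 without CAP library 2 of either day, 2 without sham library 3 of day 3 or sham library 2 of day 6, and 6 without CAP library 3 of day 3.

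Wound fibroblast genes, contractile and matrix genes of activated cells, had another order of days. At day 3, 0 of 13 passed the threshold and the median was −0.32. At day 6, 7 of 13 passed it as lower with CAP, where 2.34% of all genes did, and the median was −1.16. Those with the smallest p were Tagln, a contractile-cell actin binder, at −1.32 (adjusted p = 0.209), Runx1 at −1.16 (adjusted p = 0.209) and Pdpn at −1.15 (adjusted p = 0.209). The count rests on 1 library: without CAP library 2 of day 6, 1 of the 13 passed, the median was −0.76, and Tagln, Runx1 and Pdpn stood at −0.91, −0.76 and −0.75. Fap, a wound fibroblast gene and the closest relative of Dpp4, differed by −0.09 at day 3 (−0.51 to 0.33) and 0.20 at day 6 (−0.23 to 0.63), and between the days by 0.29 (−0.30 to 0.87). The other 5 dipeptidyl peptidase genes tested did not pass the study's threshold on either day. When 1 library was left out at day 6, 1 of the list was lower at an unadjusted p under 0.05, and 2 without CAP library 3. With all libraries, 12.5% of all genes were lower at that p.

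In the proteoglycan family of Dcn and Lum, 9 other genes were tested at each day, and none passed the threshold at day 3. Podnl1 passed it as lower at day 6, where 2.34% of all genes did. It was at −1.59 (adjusted p = 0.218), a call lost without sham library 2 (at −1.35) or sham library 3 (at −1.47). Ogn, osteoglycin, differed by −0.49 (adjusted p = 0.756) at day 3 and by 0.61 (adjusted p = 0.254) at day 6. Biglycan (Bgn) was at 639 ± 162 TPM in sham wounds at day 3 and at 1284 ± 204 TPM at day 6, a difference of 1.02 (adjusted p = 0.0543). It fell short of 2-fold without sham library 2 or 3 of day 3 or sham library 1 or 3 of day 6, at 0.87, 0.98, 0.97 and 0.94. Fmod, fibromodulin, differed by 1.11 (adjusted p = 0.0835), and by 0.98 and 0.86 without sham library 3 of either day. Prelp differed by −0.46 (adjusted p = 0.715) and Aspn by −0.59 (adjusted p = 0.797) between the treatments at day 3.

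In the Ly6 family, 3 of 8 tested genes passed the threshold as lower with CAP at day 3, where 1.16% of all genes did. Ly6e fell by 1.16 (adjusted p = 0.500) and Ly6c2 by 2.48 (adjusted p = 0.562) on the log2 scale, whichever library was left out, and Ly6i, named after its values were seen, differed by −1.35 (adjusted p = 0.720), a call lost without sham library 1 (at −1.01), sham library 3 (at −1.42), CAP library 2 (at −0.94) or CAP library 3 (at −1.39). Ly6c1 differed by −0.67 (adjusted p = 0.568). At day 6, 0 of 7 passed, and after median-ratio scaling 1 did, as higher. Interferon-induced genes, a list of 12, were given because Ly6a and several of its relatives are known to respond to interferon. The paper had already reported interferon-related genes as downregulated by CAP, from the same RNA data. The list was chosen with such earlier results known, so its counts beside the shares of all genes are a description and not an independent test. All 12 genes of the list were lower at day 3 at an unadjusted p under 0.05, where 5.14% of all genes were. The threshold was passed by 7, and by 7 to 10 when 1 library was left out, where 1.16% of all genes passed it as lower. The median of the list was −1.40, with Bst2 at −1.39 (adjusted p = 0.500), Isg15 at −1.68 (adjusted p = 0.500) and Gbp2 at −0.84 (adjusted p = 0.500). Their summed level was 818 to 857 TPM in sham and 244 to 528 TPM in CAP-treated wounds, against 351 to 456 and 228 to 343 TPM at day 6. Their part in the difference of Ly6a was not tested.

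Crabp2, the closest relative of Crabp1, was far more abundant, at 157 ± 30.03 TPM in sham and 166 ± 40.0 TPM in CAP-treated wounds of day 3. It differed by 0.06 at day 3 and 0.07 at day 6, with intervals of −0.45 to 0.58 and −0.53 to 0.67. Of 10 genes of retinoid handling tested at day 6, 1 passed the threshold as lower, where 2.34% of all genes did. This was Stra6, the receptor that takes up retinol, at 4.29 ± 0.564 TPM in sham and 1.03 ± 0.836 TPM in CAP-treated wounds. Its log2 difference was −2.28 (SE 0.59, adjusted p = 0.207). It passed the threshold whichever library was left out, at −1.61 without CAP library 2. At day 3, 0 of 11 passed. En2, the other engrailed gene, was listed at 0 in 11 of 12 libraries and at 0.0306 TPM in 1.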

How the data were processed

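Total RNA of wound tissue was sequenced as 12 paired-end mRNA libraries, 3 in each of 4 groups. The deposited values are TPM per gene, which the authors made with bcl2fastq, Trimmomatic 0.36 and StringTie on the mouse genome mm10; no source names the aligner or the strand setting. Each library's TPM summed to 1000003.08 to 1000003.23 over 55487 genes, and 18533 to 19325 genes had at least 0.3 TPM. TPM keep no read depth, so no counting interval was computed.

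Groups came from the labels. TPM were analysed as log2(TPM + 0.1), so fold changes of low genes are understated, with limma 3.58.1 in R 4.3.3 (trend, not robust), tested first on simulated data. Comparisons of 2 groups used their 6 libraries and kept a gene if both group means reached 0.3 TPM. The other 3 used all 12 libraries and kept a gene if any group mean did. P values were adjusted over all genes tested (Benjamini-Hochberg). A gene passed the study's threshold at an unadjusted p under 0.05 and at least a 2-fold difference; these cut-offs are the study's, whose p values came from other software than limma. Exact permutation tests were 2-sided.

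The 10 genes and the 20 other lists were chosen with earlier results of these data known. Named from each list were the 3 genes or fewer with the smallest p and relatives of the 10. Alternatives were a pseudocount of 1 TPM, no filter, median-ratio scaling, quantile normalization, robust estimation, a replicate block, a joint fit and leaving out each library. Upstream sequences came from RefSeq (GRCm38.p6) and gene positions from the GRCm38 coordinates of the deposited tables.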

Additional observations from a re-analysis of the deposited data

Results flagged for a closer look

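By the test of the difference between the days over the 12 libraries, the CAP effect on 2 of the 10 genes changed past the study's threshold. Both changed in the higher direction, where 2.18% of all genes did. For Dpp4 the effect at day 6 minus that at day 3 was 1.42 on the log2 scale (limma, adjusted p = 0.428), with all 3 CAP libraries below the sham libraries at day 3 and all 3 above them at day 6. For Pi16 it was 1.05 (limma, adjusted p = 0.428), with all 3 CAP libraries below the sham libraries at day 3 and overlapping groups at day 6. Neither passed after adjustment over all genes, and the value of Pi16 fell under 2-fold without any 1 of 5 libraries. Ly6a changed by 0.67, under 2-fold, with an unadjusted limma p of 0.0033.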

How the results depend on the processing

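All libraries as deposited gave 290 genes past the threshold for CAP against sham at day 3, 697 at day 6, 688 between the days in sham wounds, 507 in CAP-treated wounds, 660 over both treatments, 380 for CAP over both days and 994 for the change in the CAP effect. A pseudocount of 1 TPM in place of 0.1 TPM gave 154, 385, 405, 299, 191, 77 and 580. With no filter on low values the day 3, sham and CAP-treated time comparisons gave 568, 1156 and 842. The counts of the 10 genes past the threshold stayed the same under these settings, median-ratio scaling, robust estimation, a joint fit and quantile normalization (chosen after seeing the data, as was the 15-gene denominator). Directions turned under scaling only where the difference was near 0: under median-ratio scaling for Pdgfra (0.0079) and Pdgfrb (0.036) at day 3, En1 over time in both treatments (0.0053), Dpp4 for CAP over both days (0.084) and Dcn for the change in the CAP effect (0.015), and after quantile normalization for Pdgfrb (0.028), En1 (0.0018) and Dpp4 (0.065). Of the single differences of named genes, 699 kept direction and side of the threshold under alternatives other than leaving out a library, 8 changed sign as given, and 13, in genes of the wider lists, fell below the threshold. With the 15-gene mean in place of Pdgfra as denominator, 2 genes rather than 1 were lower without overlap in CAP-treated wounds at day 6, the added one being Pdgfra, which cannot be counted against itself.

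Leaving out 1 library at a time gave 204 to 510 genes past the threshold at day 3 (510 without CAP replicate 1), 311 to 1483 at day 6 (lowest without CAP replicate 2 and highest without CAP replicate 3), 641 to 873 in sham and 382 to 886 in CAP-treated wounds over time, and 657 to 1777 for the change in the CAP effect (again lowest without CAP replicate 2 and highest without CAP replicate 3 of day 6). Of the 10 genes, 0 to 2 were past it as lower at day 3, 1 to 2 at day 6 and 0 to 2 for the change in the CAP effect, and 0 to 1, 1 to 2 and 1 to 2 as higher over time in sham wounds, over time in CAP-treated wounds and for that change. Log2 differences that changed sign, none of them past the threshold, ran for CAP against sham at day 3 Pdgfra from −0.25 to 0.15, Pdgfrb from −0.14 to 0.14, Crabp2 from −0.052 to 0.28, Fap from −0.24 to 0.076; for CAP against sham at day 6 Lum from −0.090 to 0.20, Dpt from −0.044 to 0.33, Pi16 from −0.18 to 0.28, Cd34 from −0.16 to 0.21, Crabp2 from −0.099 to 0.32; for day 6 against day 3 in sham wounds Pi16 from −0.052 to 0.46, En1 from −0.32 to 0.14, Dpt from −0.065 to 0.31; for day 6 against day 3 in CAP-treated wounds Cd34 from −0.061 to 0.42, Crabp1 from −0.68 to 0.54, En1 from −0.091 to 0.20; for day 6 against day 3 over both treatments Pdgfra from −0.19 to 0.098, Dpp4 from −0.056 to 0.11, En1 from −0.13 to 0.10; for CAP against sham over both days Dpp4 from −0.092 to 0.077; for the change in the CAP effect between the days En1 from −0.086 to 0.38, Dcn from −0.17 to 0.055.

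Same-numbered libraries of different groups correlated between −0.107 and 0.239 over 18 pairs, with 2 over 0.1, so the numbers were not taken to pair them. With the replicate number as a block, 298, 725, 709, 548, 657, 373 and 1084 genes passed the threshold in the 7 comparisons, in the order above, and the 10 genes' counts were the same as without it. The deposited TPM values keep no read depth, so counting error could not be given. The causes of these changes were not tested.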

Other observations

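Papillary and dermal papilla genes, among which Crabp1 is often counted, were tested in part. Of 12 such genes, 7 were tested at each day for CAP against sham and the others were too low, with 0 past the threshold on either day and medians of −0.18 and 0.06. Rspo3, a Wnt agonist, differed by 0.73 (adjusted p = 0.225) at day 6.

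Among the marker lists of other cells, 2 of 6 keratinocyte genes rose past the threshold with CAP at day 6, where 1.46% of all genes did. They were Krt1, by 1.86 (adjusted p = 0.205), and Krt10, by 1.62 (adjusted p = 0.206). Of 7 endothelial genes, 3 passed it as lower, where 2.34% of all genes did, and 1 after median-ratio scaling. The endothelial count was 0 without sham library 1 or 3 or CAP library 2, 1 without sham library 2, 6 without CAP library 3 and 7 without CAP library 1. Skeletal muscle genes summed to 4005 to 5945 TPM in sham and 2081 to 5787 TPM in CAP-treated wounds at day 3, and to 2517 to 3663 and 1924 to 2715 TPM at day 6. Schwann cell genes summed to 162 to 199 and 79.7 to 139 TPM at day 3, without overlap, and to 147 to 169 and 70.9 to 151 TPM at day 6. At day 3, CAP against sham had medians of −0.17 for pericyte and smooth muscle genes, 0.10 for adipocyte genes, −0.04 for neutrophil genes, −0.47 for T and NK cell genes and 0.22 for hair follicle genes, and at day 6 −0.57, 0.90, −1.11, 0.06 and 0.01. When 1 library was left out, the day 6 medians ran from −0.76 to −0.37, 0.54 to 1.25, −1.35 to −0.50, −0.12 to 0.27 and −0.09 to 0.16 in the same order, the pericyte and neutrophil values nearest 0 being those without CAP library 2. At day 3 the pericyte, adipocyte, neutrophil, T and NK cell and hair follicle medians ran from −0.31 to −0.0050, −0.20 to 0.59, −0.34 to 0.40, −0.55 to −0.38 and −0.05 to 0.79. The 10 fibroblast marker genes together summed to 2808 to 3145 TPM in sham and 1880.0 to 2373 TPM in CAP-treated wounds at day 3, and to 2636 to 3776 and 2816 to 3112 TPM at day 6.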
